A study of Rattus norvegicus with 24 samples.

Results

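The genes described here encode enzymes of glycolysis and lactate metabolism in the rat hypothalamus: Hk1, Pfkm, Pfkp, Aldoc, Tpi1, Pgk1, Pgam1, Eno2, Ldha and Ldhb. They were chosen by name, with earlier results of these data known. Every probe set that the platform's probe table gives to 1 of these symbols was taken, array controls excepted. This gave 15 probe sets for 10 genes, out of 31042 probe sets tested and 14217 genes with a probe set. Pfkm and Pgk1 had 3 probe sets each, Hk1 had 2, and the other genes had 1 each.

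Glycolysis splits glucose into pyruvate, and lactate dehydrogenase interconverts pyruvate and lactate. In brain tissue, glucose enters from blood through dedicated transporters, astrocytes are known for releasing lactate, and neurons can take lactate up and oxidize it. Hexokinase and phosphofructokinase catalyse the early, regulated phosphorylations, aldolase and triosephosphate isomerase make the triose phosphates, and the later enzymes carry these to pyruvate.

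RNA was measured with oligonucleotide arrays in hypothalamic blocks of 18 male Wistar rats, an outbred strain, housed from the age of 7 weeks and given a week to settle. A group of 6 was restrained in wire mesh for 2 h while 20 µL of (R,S)-linalool, a mixture of the mirror-image forms of a floral-scented terpene alcohol, evaporated inside a 40 L box. Another group of 6 had the same restraint without the odour, and the third group of 6 served as control. Each array held RNA of 1 rat, so that the arrays of a group are separate animals. No group with linalool but without restraint was analysed here, so the linalool comparison refers to restrained rats alone. The authors normalized the stress arrays in 2 sets, once with the control arrays and once with the linalool arrays, and each comparison was made inside its own set. Because the same 6 stress rats enter both comparisons, the 2 results are not independent, and control and linalool arrays were not set against each other.

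The block is a mixture of cells, and fewer cells of a type and less RNA per cell cannot be told apart in it. Of 14 hypothalamic neuropeptide and histamine-neuron genes listed, 13 were measured, and their mean log2 signal per array lay between 9.37 and 10.07 in linalool rats and between 9.12 and 9.73 in stress rats of the same set. A log2 array signal has no true zero, so no marker could be scored as absent. Array medians lay between 8.13 and 8.14 in linalool rats and between 8.13 and 8.15 in stress rats of that set, and between 8.156 and 8.169 in stress rats and between 8.158 and 8.189 in controls of the other. The mean log2 signal of 10 markers of meninges and fibroblasts was 8.46 to 8.81 in stress rats, against 8.39, 8.69, 9.43, 9.59, 10.53 and 10.45 in controls 1 to 6, so controls 3 to 6 stood above every stress rat.

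Most probe sets in the deposited values had a very small spread between arrays. A probe set with a residual SD below 0.01 on the log2 scale is called compressed here, and its log2 difference is a poor measure of size. For such probe sets the difference of the group means is given in residual SDs of that probe set, a scale on which 6 against 6 arrays give a standard error of 0.577. Compressed probe sets made up 83.7% of those tested in the linalool set and 83.5% in the control set. Among the glycolysis probe sets, 11 of 15 were compressed in the linalool set and 9 of 15 in the control set. The uncompressed ones in the linalool set were those of Ldha and Ldhb, 1 of Hk1 and 1 of Pfkm.

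Under linalool, both lactate dehydrogenase genes, Ldha and Ldhb, and 1 probe set of the phosphofructokinase gene Pfkm rose relative to stress alone. In the same comparison 1 probe set of Hk1 fell. These calls held under every scaling tried, though centring each array on its median moved the values too little to put them to a test. A second Pfkm probe set, Pfkp and the mutase Pgam1 rose in the deposited values, and their direction depended on the scaling of the arrays. Aldoc, Tpi1, Pgk1 and Eno2 had no probe set past the threshold in the deposited values, and their calls also changed with the scaling. Stress against control moved no glycolysis probe set past the threshold.

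In the linalool comparison 6 of the 15 probe sets rose (40.0%), 1 fell (6.67%) and 8 did not pass an adjusted p of 0.05. With quantile normalization on top of the deposited values 3 rose and 7 fell, and with each array centred on its median 14 rose and 1 fell. Over all probe sets tested, 14.2% rose and 10.8% fell. The 6 linalool and 6 stress arrays did not overlap for 5 of the 15 probe sets (33.3%), against 11.9% of all probe sets in either direction. By gene, taking the probe set with the highest mean signal, 5 of 10 rose and 1 fell, where 19.3% of all genes rose and 9.08% fell. The median difference was -0.04 residual SDs over the 15 probe sets and -0.01 over all tested, and 1.45 over the 10 genes and 0.22 over all genes. The 2 medians differ through the 5 further probe sets of Hk1, Pfkm and Pgk1, of which 4 had a difference below 0 and the uncompressed Pfkm probe set had a difference above 0. Calls were also more frequent among uncompressed probe sets in general: 28.4% of those rose and 21.3% fell, against 11.4% and 8.79% of compressed ones. Of the glycolysis probe sets, 3 of the 4 uncompressed rose and 1 fell, and 3 of the 11 compressed rose.

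**Figure D1:**
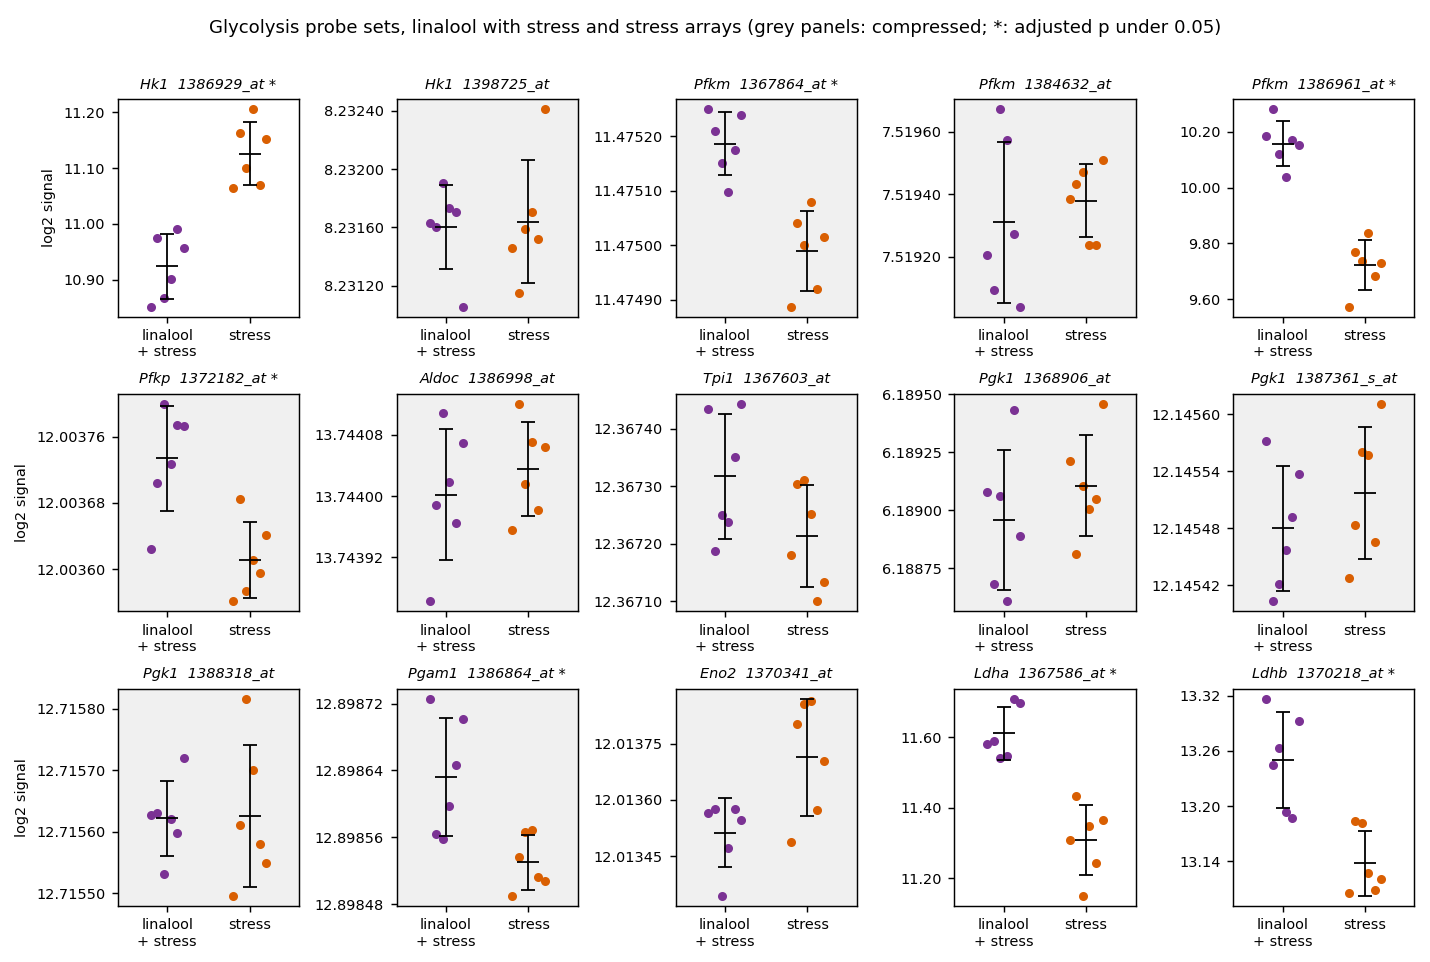
Log2 signal (vertical axes, each panel on its own scale) of the 15 glycolysis probe sets in the 6 rats restrained with linalool (left) and the 6 rats restrained alone (right), with the mean and SD of each group; grey panels are compressed and an asterisk marks an adjusted p under 0.05. The groups do not overlap for Hk1 1386929_at, Pfkm 1367864_at, Pfkm 1386961_at, Ldha and Ldhb.

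Lactate dehydrogenase is a tetramer of subunits encoded by Ldha and Ldhb, with the Ldha subunit known from muscle and the Ldhb subunit from heart. Ldha had log2 signals of 11.58, 11.59, 11.54, 11.55, 11.71 and 11.70 in linalool rats 1 to 6, against 11.31, 11.43, 11.15, 11.35, 11.24 and 11.37 in stress rats 1 to 6. Every linalool array lay above every stress array. The means were 11.61 ± 0.0738 in linalool rats and 11.31 ± 0.0996 in stress rats (SD, 6 rats each), a log2 difference of 0.30 (SE 0.0506, adjusted p = 0.00195) or 1.23-fold on the linear scale of the deposited values.

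Ldhb had log2 signals of 13.32, 13.24, 13.26, 13.19, 13.19 and 13.29 in linalool rats, against 13.11, 13.18, 13.18, 13.13, 13.11 and 13.12 in stress rats. The lowest linalool array stood just above the highest stress array. The log2 difference of 0.11 (SE 0.0258, adjusted p = 0.00973) was smaller than that of Ldha, at 1.08-fold, though the 2 probe sets differ in how far their values vary and the 2 differences were not tested against each other. In residual SDs the differences were 3.45 for Ldha and 2.50 for Ldhb.

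Since both lactate dehydrogenase genes rose, the 250 bases before their annotated starts are shown as RefSeq gives them on assembly GRCr8, for Ldha at chr1:106507842-106508091 on the plus strand and for Ldhb at chr4:177177409-177177658 on the minus strand, 5′ to 3′ on the gene's strand. Capitals mark matches to ACGTG, the core of the element bound by hypoxia-inducible factors, on either strand, and to TGACGTCA, the palindrome bound by CREB and related factors.
Ldha: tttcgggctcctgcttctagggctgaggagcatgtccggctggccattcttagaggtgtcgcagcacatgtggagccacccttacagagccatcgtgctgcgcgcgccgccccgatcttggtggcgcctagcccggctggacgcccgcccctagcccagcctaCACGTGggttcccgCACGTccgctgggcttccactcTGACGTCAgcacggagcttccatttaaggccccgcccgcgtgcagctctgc
Ldhb: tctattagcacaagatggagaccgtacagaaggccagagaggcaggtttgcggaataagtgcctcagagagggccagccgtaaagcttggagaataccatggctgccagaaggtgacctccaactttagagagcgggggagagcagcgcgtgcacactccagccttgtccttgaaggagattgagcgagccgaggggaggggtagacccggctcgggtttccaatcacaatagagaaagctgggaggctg
In the Ldha window ACGTG occurs 3 times, with 2 of the matches overlapping on opposite strands between bases -87 and -82 and the other between bases -73 and -69, and TGACGTCA occurs between bases -51 and -44. The Ldhb window holds neither motif. A window was given for 9 of the 10 genes (10 windows, 2 of them for Hk1, and none for Pgk1). ACGTG was found in 6 of these 10 windows and in 16.6% of all 33469 windows, 3 or more matches in 1.26% of all windows, and TGACGTCA in 1 of the 10 and in 1.59% of all. The other windows with ACGTG were those of Hk1 (1 of its 2), Pfkm, Aldoc, Pgam1 and Eno2, each with 1 match. Genes that rose and genes that did not were thus both among those with the motif. These matches describe the letters in the window and are no evidence of binding.

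Phosphofructokinase adds the second phosphate to the sugar and is the main allosteric control point of the pathway. Its muscle-type subunit gene Pfkm was read by 3 probe sets that did not behave alike. The uncompressed Pfkm probe set 1386961_at had log2 signals of 10.18, 10.28, 10.12, 10.04, 10.17 and 10.15 in linalool rats, against 9.57, 9.77, 9.74, 9.84, 9.68 and 9.73 in stress rats. Every linalool array lay above every stress array. Its log2 difference of 0.44 (SE 0.0487, 5.17 residual SDs, adjusted p = 0.000276), or 1.35-fold, was the largest of the glycolysis probe sets in residual SDs.

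The Pfkm probe set with the highest signal, 1367864_at, was compressed. Its arrays lay between 11.47510 and 11.47525 in linalool rats, against 11.47489 and 11.47508 in stress rats, without overlap, and it rose by 2.98 residual SDs (adjusted p = 0.00499). The call ended with trend and robust moderation (adjusted p = 0.0586) and, with the sign turned, with quantile normalization (-0.0041, adjusted p = 0.7879), and this probe set stands for Pfkm in the count by gene. The third Pfkm probe set, 1384632_at, overlapped between the groups and had a difference of -0.35 residual SDs (adjusted p = 0.696). Pfkp encodes the platelet-type subunit, which is also made in brain. Its single probe set was compressed, with arrays between 12.0036 and 12.0038 in linalool rats and between 12.0036 and 12.0037 in stress rats. The Pfkp arrays overlapped, and the mean was higher under linalool by 2.20 residual SDs (adjusted p = 0.0218).

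Hexokinase 1, the main hexokinase of brain, traps glucose in the cell by phosphorylating it. The uncompressed Hk1 probe set 1386929_at had log2 signals of 10.85, 10.98, 10.87, 10.90, 10.99 and 10.96 in linalool rats, against 11.06, 11.16, 11.10, 11.21, 11.07 and 11.15 in stress rats. Every linalool array lay below every stress array. Hk1 fell by 0.20 on the log2 scale (SE 0.0332, -3.51 residual SDs, adjusted p = 0.00179), which is 0.869-fold. The other Hk1 probe set, 1398725_at, was compressed and overlapped, with a difference of -0.10 residual SDs (adjusted p = 0.919), so the fall rests on 1 of the 2.

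Among the enzymes of the middle and lower part of the pathway, Pgam1, which shifts the phosphate group of phosphoglycerate, was the single gene to pass. Its arrays lay between 12.89856 and 12.89873 in linalool rats and between 12.89849 and 12.89857 in stress rats, with overlap, a difference of 1.85 residual SDs (adjusted p = 0.0448). This call held without linalool rat 2 or 3 and was lost without any other single array of the 12, with an adjusted p of up to 0.0892.

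Aldoc, the aldolase known as an astrocyte enzyme in brain, differed by -0.44 residual SDs (adjusted p = 0.622), with all 12 arrays between 13.7439 and 13.7441. Tpi1, which interconverts the triose phosphates, differed by 1.05 residual SDs (adjusted p = 0.213). Pgk1, which makes ATP from bisphosphoglycerate, had differences of -0.56, -0.54 and -0.04 residual SDs in its 3 probe sets, none of which passed. These genes overlapped between the groups. Eno2, the neuronal enolase, had arrays between 12.0133 and 12.0136 in linalool rats, against 12.0135 and 12.0139 in stress rats, and differed by -1.57 residual SDs (adjusted p = 0.0696). Without stress rat 1 the adjusted p of Eno2 was 0.0247, and with all 12 arrays Eno2 passed as lower with quantile normalization (adjusted p = 0.001911) and as higher with median centring (adjusted p = 0.03576).

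The calls of the compressed probe sets changed with the scaling of the arrays. With each array centred on its median all 11 passed as higher. With quantile normalization 6 of the 11 passed as lower, namely Pfkp, Pgam1, Tpi1, Eno2 and the Pgk1 probe sets 1387361_s_at and 1388318_at (adjusted p = 0.0008003, 3.01e-05, 0.01198, 0.001911, 0.007075 and 0.002623), and none passed as higher. The uncompressed Hk1 1386929_at, Pfkm 1386961_at, Ldha and Ldhb kept their direction and passed under both. Median centring shifts all values of an array by the same small amount, far below the differences of these probe sets. It could therefore hardly change their calls, and quantile normalization was the stricter check.

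**Figure D2:**
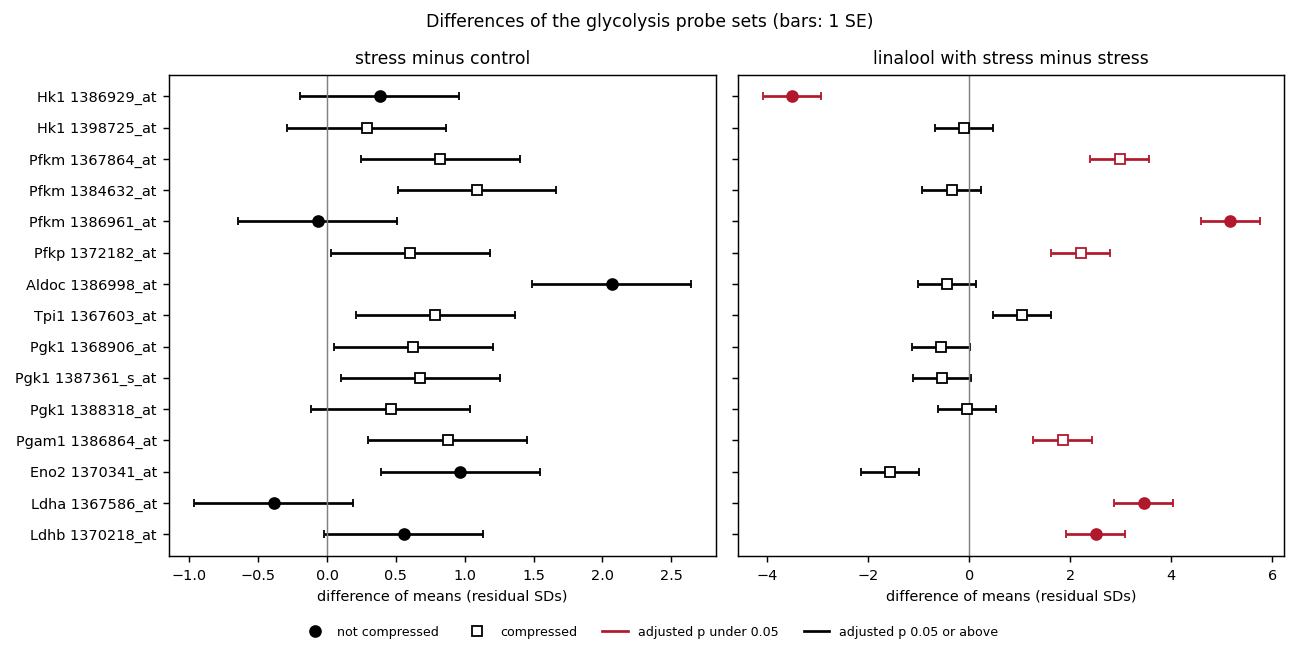
Difference of group means in residual SDs (horizontal axes, bars of 1 SE) for the 15 glycolysis probe sets, linalool with stress minus stress on the right and stress minus control on the left; filled circles are uncompressed probe sets, open squares compressed ones, and red marks an adjusted p under 0.05. On the right the differences run from -3.51 for Hk1 1386929_at to 5.17 for Pfkm 1386961_at, and on the left no probe set passed.

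Array controls and cell markers moved in the same comparison. Of 57 array control probe sets, 17 were higher and 10 lower in linalool than in stress arrays (adjusted over the controls), among them 15 of the 27 probe sets of bacterial transcripts that serve as labelling controls, all 15 higher. Of 18 further controls that are not rat transcripts, 0 were higher and 4 lower. Of 12 rat control probe sets 2 were higher and 6 lower, with 5S rRNA at a log2 difference of -0.39 (adjusted p = 0.000786). The hexokinase control read near the 5′ end of the transcript was lower by 3.33 residual SDs (adjusted p = 0.00101), whereas the middle control was at -0.13 (adjusted p = 0.885) and the 3′ control at -1.12 residual SDs (adjusted p = 0.106). These hexokinase controls were all compressed, and the 5′ log2 difference was -0.00074. The 5′, middle and 3′ controls of GAPDH, the glycolytic dehydrogenase, were all lower (adjusted p = 0.0251, 0.00476 and 0.0283), with log2 differences of -0.10 and -0.13 for the 5′ and middle controls and -1.81 residual SDs for the compressed 3′ control. For beta-actin the 5′ and middle controls were higher by 0.20 and 0.08. The part of labelling, RNA quality and array processing in the glycolysis differences was not tested, and processing done separately for the linalool and stress arrays cannot be told apart from the odour.

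Of 8 neuronal marker genes, Syt1 and Rbfox3 were lower and none higher under linalool, and their mean log2 signal lay between 11.77 and 11.87 in linalool rats, against 11.87 and 11.93 in stress rats. Of 9 astrocyte markers, Mlc1 was higher and Slc1a2 lower, with means between 11.91 and 11.96 in linalool rats and between 11.89 and 11.94 in stress rats. Both measured blood markers, Alas2 and Hbb, were higher, with means between 9.87 and 10.31 in linalool rats against 9.57 and 9.87 in stress rats. Of the 13 measured neuropeptide and histamine-neuron genes, 12 had a difference above 0. Among them Hdc, Npy and Sst were higher by 0.60, 0.31 and 0.44 (adjusted p = 0.00245, 0.00781 and 0.0427), and none passed as lower. Of 7 oligodendrocyte markers Mag alone passed by highest-mean probe set, as lower (adjusted p = 0.00443), and over their 13 probe sets 1 was higher and 2 lower. Of 8 microglial markers Aif1 alone passed, as higher (adjusted p = 0.0133). Over all genes 19.3% rose and 9.08% fell. The part of cell or blood content in the glycolysis differences was not tested.

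After 2 h of restraint no glycolysis gene changed past the threshold: 0 of 15 probe sets passed in stress against control rats, and 1 had an unadjusted p under 0.05. Over all probe sets tested 0.341% rose and 0.213% fell, and by gene 0.401% rose and 0.197% fell. The groups overlapped for all 15 glycolysis probe sets, where 1.78% of all probe sets did not overlap. Adjusted p-values of the 15 ran from 0.142 to 0.966. The difference was above 0 for 13 of 15 probe sets and for 9 of 10 genes, with medians of 0.63 residual SDs over the probe sets (0.12 over all tested) and 0.69 over the genes (0.11 over all genes).

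The lowest adjusted p was that of Aldoc, which was not compressed in this set. Aldoc had log2 signals of 13.69, 13.77, 13.71, 13.74, 13.72 and 13.78 in stress rats 1 to 6, against 13.51, 13.72, 13.68, 13.59, 13.52 and 13.57 in controls 1 to 6. Control 2 lay among the stress rats, and the other 5 controls lay below all of them. The log2 difference was 0.14 (SE 0.0381, 2.07 residual SDs, unadjusted p = 0.00417, adjusted p = 0.142), with a 95% interval of 0.05 to 0.22. Without controls 4, 5 and 6, a fit with fewer arrays and so less precision, it was 0.10 (adjusted p = 0.5445). With 1 array left out the adjusted p of Aldoc ran from 0.0594 to 0.254. The lowest was without control 2, where the difference was 0.16. None of 9 astrocyte markers passed in this comparison, with a mean log2 signal between 11.85 and 11.93 in stress rats and between 11.84 and 11.93 in controls. The fit without controls 4 to 6 kept control 3, whose meningeal mean of 9.43 also stood above every stress rat. It therefore cannot show the part of the meningeal signal of controls 3 to 6 in these differences, which was not tested.

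Eno2 was also uncompressed here. It had log2 signals of 11.96, 12.00, 12.00, 12.00, 11.97 and 11.99 in stress rats, against 11.97, 11.95, 11.96, 11.97, 11.95 and 12.00 in controls. The groups overlapped and the difference was 0.02 (SE 0.0109, adjusted p = 0.414).

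Of the genes that moved under linalool, Ldha differed by -0.05 (95% interval -0.21 to 0.11) between stress and control rats, and Ldhb by 0.04 (-0.05 to 0.13). Hk1 1386929_at differed by 0.04 (-0.09 to 0.18), and Pfkm 1386961_at by -0.00085 (-0.017 to 0.015). In this set the residual SD of Pfkm 1386961_at was 0.0129, just above the compression limit of 0.01. Its narrow interval is thus not on a like scale with the others. Controls spread widely for Hk1, between 10.88 and 11.19, against 11.01 to 11.18 in stress rats. Ldha controls ranged between 11.21 and 11.56, against 11.17 to 11.47 in stress rats.

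**Figure D3:**
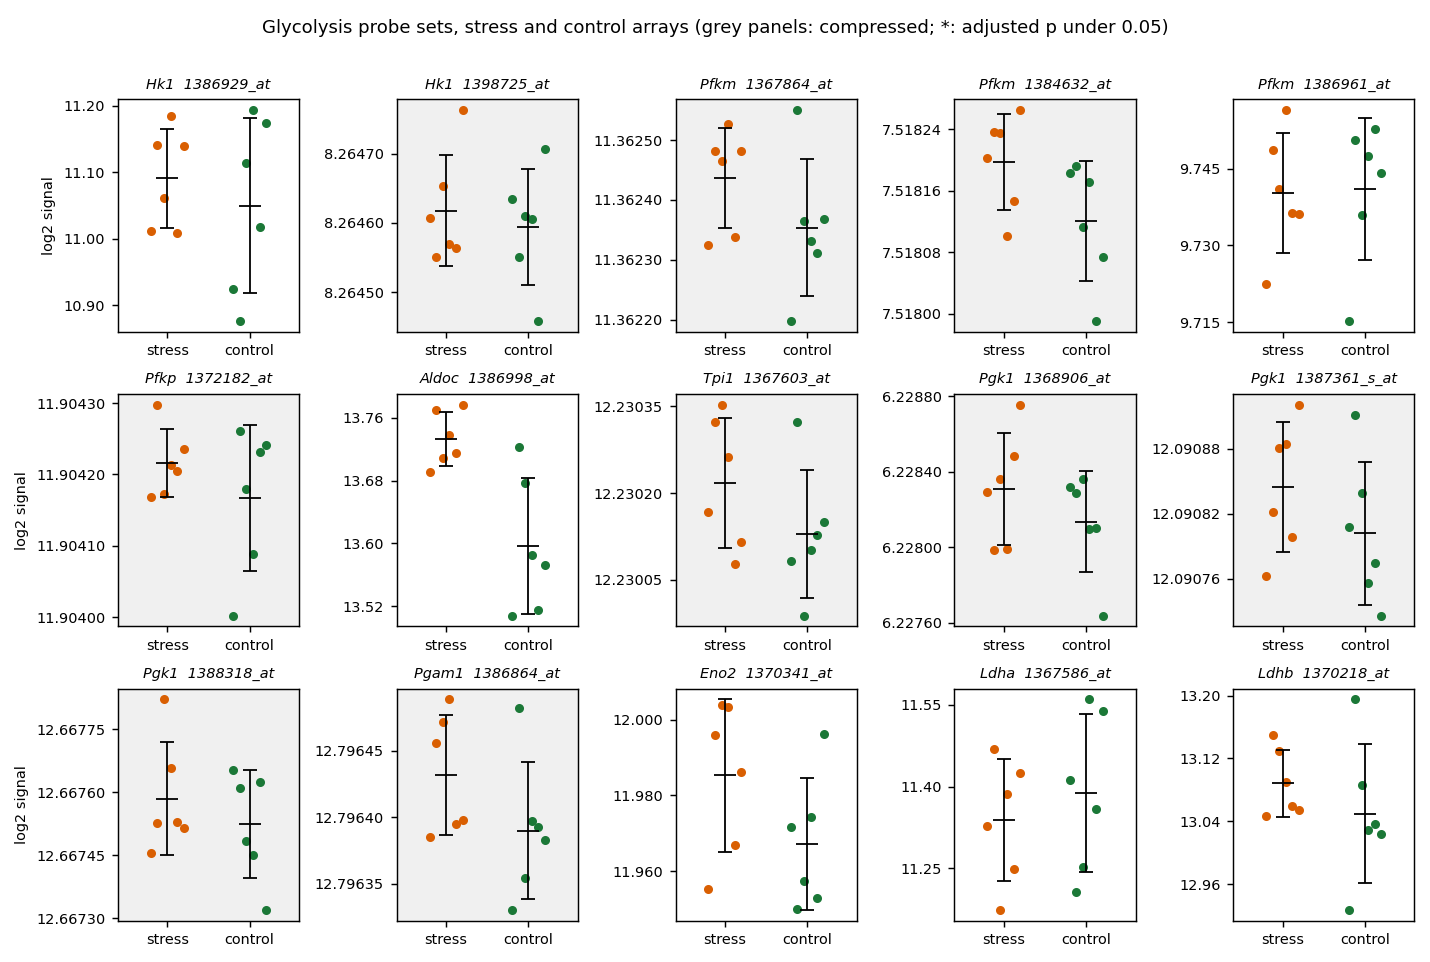
Log2 signal (vertical axes, each panel on its own scale) of the 15 glycolysis probe sets in the 6 restrained rats (left) and the 6 control rats (right), with the mean and SD of each group; grey panels are compressed. The groups overlap in every panel, and Aldoc, with stress arrays between 13.69 and 13.78 and control arrays between 13.51 and 13.72, has the smallest adjusted p, 0.142.

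The stress rats allow a direct look at what the normalization did, since the same 6 arrays are present in both sets. The SD over these 6 arrays differed more than 10-fold between the sets for 2 of the 15 glycolysis probe sets and for 13.4% of all probe sets. For Aldoc the SD was 6.12e-05 beside the linalool arrays and 0.0346 beside the controls, a ratio of 566, and for Eno2 it was 0.000156 and 0.0201, a ratio of 129. Pfkm 1386961_at went the other way, with 0.0890 beside the linalool arrays and 0.0117 beside the controls, a ratio of 7.60. For Ldha, Ldhb and Hk1 1386929_at the SDs agreed within a ratio of 1.31. The small log2 differences of Aldoc and Eno2 under linalool, and of Pfkm 1386961_at under stress, were measured in the set where the same stress arrays had the smaller spread. In residual SDs these differences were -0.44, -1.57 and -0.07. The part of the normalization in them was not tested.

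**Figure D4:**
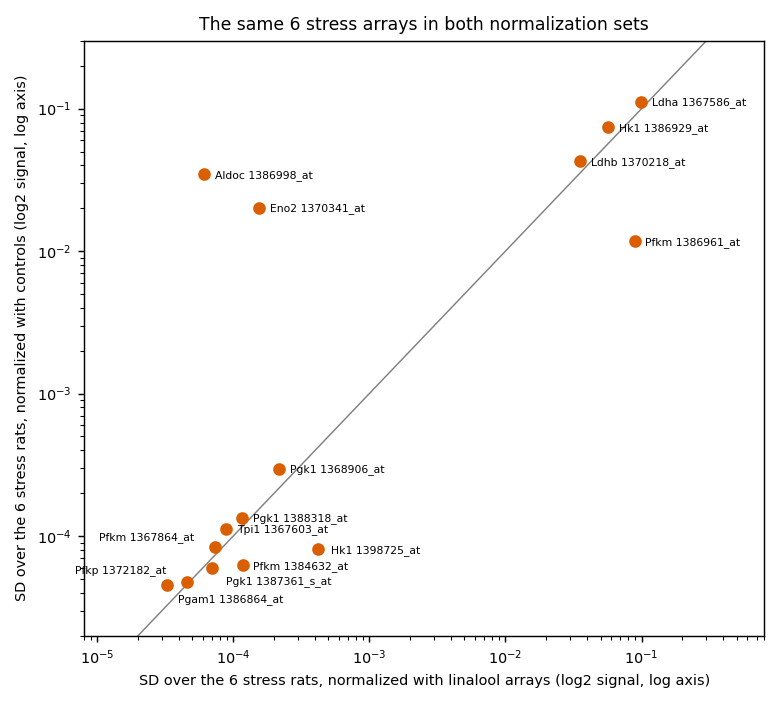
SD of each glycolysis probe set over the same 6 stress rats, as normalized with the linalool arrays (horizontal, log axis) and with the control arrays (vertical, log axis); the line marks equal SDs. Aldoc and Eno2 lie far above the line (ratios 566 and 129), Pfkm 1386961_at lies below it (7.60), and Ldha, Ldhb and Hk1 1386929_at lie near it.

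Genes next to the pathway were counted from lists of enzymes, transporters and regulators, each gene by its probe set with the highest mean. Their calls are from the deposited values, and how far they depend on the scaling of the arrays was not tested. Of 12 other glycolysis enzyme genes measured, 1 rose and 2 fell under linalool. Aldoa, the general aldolase, had a mean of 13.17 ± 0.0213 in linalool rats and 13.32 ± 0.0356 in stress rats, a log2 difference of -0.15 (adjusted p = 0.000301). Bpgm, which makes the haemoglobin ligand bisphosphoglycerate in red cells, rose by 0.22 (adjusted p = 0.00276). Blood markers were also higher, and their part in this rise was not tested. The muscle-type mutase Pgam2 fell by 1.75 residual SDs (adjusted p = 0.0471). Gpi, Eno1, Hk2 and Pfkl did not pass, with differences of 0.45, 0.78, 0.85 and -1.71 residual SDs. In stress against control rats none of the 12 passed, and the same 4 genes differed by 1.42, 0.89, -0.85 and 1.44 residual SDs.

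Glucose and lactate cross membranes through Slc2a and Slc16a carriers, of which 9 genes were measured. Over all 12 probe sets of these genes 1 rose and 1 fell under linalool, and by highest-mean probe set 1 gene rose. Slc16a1, the monocarboxylate carrier MCT1 of endothelium and glia, rose by 0.33 under linalool, with means of 10.66 ± 0.0867 in linalool rats and 10.33 ± 0.0435 in stress rats (adjusted p = 0.000376) and no overlap. Its other, compressed probe set differed by -0.58 residual SDs and did not pass. Of 10 endothelial and pericyte markers, Esam and Cldn5 were higher and Rgs5 was lower under linalool, with means between 9.23 and 9.45 in linalool rats and between 9.19 and 9.46 in stress rats, and their part was not tested. Between stress and control rats Slc16a1 differed by -0.12 (adjusted p = 0.309). Slc2a1, the glucose transporter GLUT1, rose by 0.36 after restraint (adjusted p = 0.00585). Of the 10 endothelial and pericyte markers Kdr alone passed there, as lower. In all 8 of the 10 had a difference below 0, with a median of -0.39 residual SDs, and their part was not tested. Slc2a1 differed by 1.30 residual SDs between linalool and stress rats (adjusted p = 0.119). It was compressed in that set, with a residual SD of 0.00315, against 0.0526 in stress against control. Slc2a3, the neuronal transporter GLUT3, did not pass in either comparison, with -1.60 residual SDs under linalool and 0.37 under stress.

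Of 10 regulators of glycolysis and of pyruvate dehydrogenase, Pdk4 rose and Pfkfb3 fell after restraint. Pdk4, a kinase that inactivates pyruvate dehydrogenase, had a mean of 9.61 ± 0.546 in stress rats and 8.36 ± 0.169 in controls, a log2 difference of 1.25 (adjusted p = 0.0474). Pfkfb3, which makes the activator of phosphofructokinase, had means of 8.93 ± 0.0670 in stress rats and 9.17 ± 0.0473 in controls, a difference of -0.25 (adjusted p = 0.0165). A second Pfkfb3 probe set also fell (adjusted p = 0.0236), and the third differed by 1.19 residual SDs (adjusted p = 0.334). Neither gene passed under linalool, with differences of 0.09 residual SDs for Pdk4 and 0.65 for Pfkfb3. Pfkfb3 was compressed under linalool, with a residual SD of 0.000156, against 0.0580 in stress against control. Its differences in the 2 sets are thus not on a like scale. Under linalool the single call by highest-mean probe set was Pdp2, a phosphatase that reactivates pyruvate dehydrogenase, which fell by 2.01 residual SDs (adjusted p = 0.0273). Over all 21 probe sets of the 10 regulators, 1 rose and 3 fell under linalool.

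Downstream of lactate dehydrogenase, 4 of 7 genes for pyruvate entry into mitochondria rose under linalool and none fell. They were Pdhb, Pdha1 and Pdhx, parts of pyruvate dehydrogenase, at 2.25, 2.00 and 1.80 residual SDs (adjusted p = 0.0177, 0.0297 and 0.0415), and the pyruvate carrier Mpc1, which rose by 0.12 (adjusted p = 0.0296). The 3 pyruvate dehydrogenase probe sets were compressed, and calls of compressed glycolysis probe sets changed with the scaling of the arrays. Under stress none of the 7 passed.

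Of 13 pentose phosphate and gluconeogenesis genes, 6 rose and none fell under linalool. Tkt, the transketolase, had means of 11.26 ± 0.0825 in linalool rats and 10.95 ± 0.0424 in stress rats, a log2 difference of 0.32 (adjusted p = 0.000367). G6pc3, a broadly expressed glucose-6-phosphatase, rose by 0.30 (adjusted p = 0.000419), Rpe, an epimerase of pentose phosphates, by 0.26 (adjusted p = 0.000993), and the mitochondrial carboxykinase Pck2 by 3.19 residual SDs (adjusted p = 0.00322). Rpia was counted as higher by its brighter probe set, while its other probe set fell (adjusted p = 0.0254). Under stress Gpd1, the cytosolic glycerophosphate dehydrogenase, rose by 0.92 (adjusted p = 0.0352), alone of the 13. Without controls 4, 5 and 6 only 1 probe set of all tested passed in stress against control, so at least 4 of the 5 genes named as moved by stress, Slc2a1, Pdk4, Pfkfb3, Gpd1 and Kdr, did not pass in that smaller fit.

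Of 10 glycogen genes, Ugp2, Gys1 and Pgm1 rose under linalool, by 0.21, 2.26 residual SDs and 0.21 (adjusted p = 0.00305, 0.0163 and 0.0211). They take part in glycogen synthesis, and Pgm1 also acts in its breakdown. None passed under stress, where the lowest adjusted p-values were 0.0611 for Pygm, the muscle-type phosphorylase, and 0.0898 for Phka1. Of 14 hypoxia response genes, Bnip3, Higd1a and Hif1a rose under linalool by 2.72, 1.94 and 1.85 residual SDs (adjusted p = 0.00709, 0.0299 and 0.0378), all 3 compressed. By highest-mean probe set none fell, and over all 20 probe sets of these genes 5 rose and 1 fell. Under stress none of the 14 passed, with Ddit4 at 0.54 and Ndrg1 at 0.17 (adjusted p = 0.182 and 0.203). These shares are to be read beside the 19.3% of all genes that rose and 9.08% that fell under linalool.

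**Figure D5:**
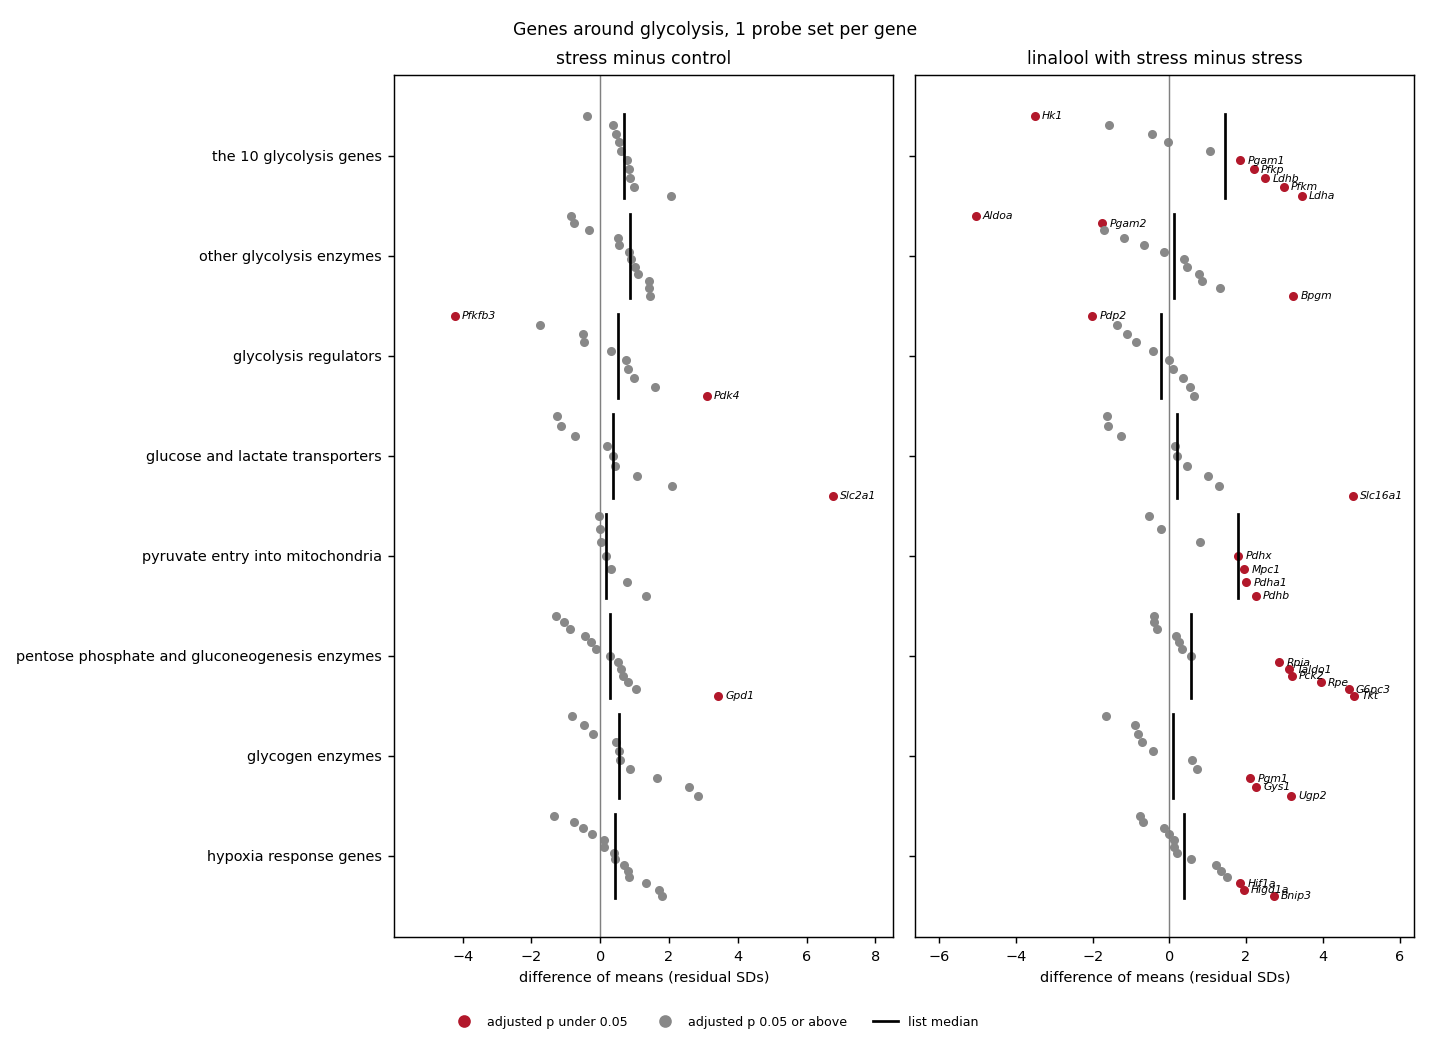
Difference of group means in residual SDs (horizontal axes), 1 point per gene by its probe set with the highest mean, for the 10 glycolysis genes and 7 lists of related genes, linalool with stress minus stress on the right and stress minus control on the left; named red points have an adjusted p under 0.05 and vertical bars are list medians. On the right 5 of the 10 glycolysis genes are red above 0 and Hk1 below it, and on the left none is red.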

How the data were processed

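The authors deposited 24 columns of log2 signals for 18 arrays, and the log2 scale was read from their range of 5.59 to 14.93. The steps of probe summarization and normalization are not given in the sources used here. Per the labels' design text the arrays were normalized in 2 sets, and all columns were used.

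Linear models were fitted in each set, without a filter, by lmFit and eBayes of limma 3.58.1 (R 4.3.3), and two-sided p-values were adjusted by Benjamini-Hochberg over 31042 probe sets. The 57 array controls were fitted with the others and adjusted among themselves. The prior degrees of freedom were 0.403 and 0.419. The procedure was run on simulated independent normal values with shifts added to some probe sets. These values hold no differences in array scaling, so the run cannot show how scaling affects the calls.

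Probe sets with several symbols were not named, so Gapdh and Pkm appear through array controls or not at all. Named were every glycolysis probe set, a fixed set of pathway genes, and up to 4 genes past the threshold (otherwise at most 2) per list by p. The members, lists, the compression limit and the alternatives were chosen with earlier results of these data known. Promoter windows are from RefSeq, and the number of arrays limits the precision.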

Additional observations from a re-analysis of the deposited data

Results flagged for a closer look

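In 60 groups of 6 arrays (15 probe sets in 4 groups), the lowest or highest array was set against its nearest neighbour, and 2 groups had an array far from the others by Dixon's test. Chance alone would mark about 1 group in 20. For Hk1 1398725_at, linalool rat 6 was the lowest at 8.2311, against 8.2316 for the nearest linalool rat, a gap of 0.645 of the group's range. For Pgk1 1368906_at, control rat 6 was the lowest at 6.2276, against 6.2281 for the nearest control, a gap of 0.638 of the range. Both probe sets were compressed, so the gaps are a few ten-thousandths of a log2 unit, and neither probe set passed in the comparison of its array, in the deposited values with or without that array.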

How the results depend on the processing

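The count for stress against control, 172 probe sets, was 101 with 1 probe set per gene, 77 with quantile normalization, 92 with median centring, 16 with the replicate block and 1 without controls 4, 5 and 6. Leaving out 1 array gave 24 to 205, with 24, 37, 76 and 29 without stress rats 1, 3, 4 and 5, and 74, 87, 52 and 48 without controls 1, 3, 5 and 6. No glycolysis probe set passed in any of these fits. The array controls past the threshold, 1 of 57, were 0 with the replicate block and 0 to 4 with 1 array left out.

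For linalool with stress against stress the count of 7763 was 4229 with 1 probe set per gene, 2608 with quantile normalization and 28990 with median centring (56.7% higher as deposited, and 67.4%, 58.6% and 94.9% higher), and 6383 to 7466 with 1 array left out. The 7 glycolysis probe sets, 6 higher and 1 lower, were 15 with median centring (14 higher), 10 with quantile normalization (3 higher and 7 lower), 4 with trend and robust moderation and 6 to 7 with 1 array left out. The array controls, 27 of 57, were 53 with median centring and 22 to 32 with 1 array left out. Quantile normalization reversed Pfkm 1367864_at (-0.0041), Pfkp (-0.0303), Tpi1 (-0.0253) and Pgam1 (-0.0652). Median centring reversed Hk1 1398725_at (0.00757), Pfkm 1384632_at (0.00754), Aldoc (0.00758), Pgk1 (0.00746, 0.00757 and 0.00761) and Eno2 (0.00741), each by the shift that centring adds. Trend and robust moderation ended the calls of Pfkm 1367864_at, Pfkp and Pgam1 (adjusted p = 0.0586, 0.627 and 0.946). The cause was not tested. Hk1 1386929_at, Pfkm 1386961_at, Ldha and Ldhb passed in the same direction under every alternative in which they were tested. Of 278 alternative values for single probe sets 247 kept their call, and in stress against control all 293 did.

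The labels give no pairing by number. Deviations from group means of same-numbered arrays correlated at 0.0755 to 0.223 between stress and control, all above 0, with 3 of 6 best matched to their own number, and at -0.105 to 0.182 between linalool and stress, with 1 of 6, so that not every pair passed 0.1 in either comparison. With the replicate block Pfkp and Pgam1 lost their calls (adjusted p = 0.0594 and 0.1555, differences 0.000123 and 0.000102).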
